A study of Mus musculus with 5 samples.

Results

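The genes described here encode the centromere, the kinetochore, the spindle checkpoint and the chromosomal passenger complex of the dividing mouse cell. The 42 genes were taken by symbol from the array's annotation, and a probe set (a group of short probes for 1 transcript) counted as a member only where it named 1 of these genes and no other. All 42 genes were measured, on 88 probe sets, among 18193 genes and 45037 probe sets tested in all. RNA came from sorted KLS cells, which carry c-Kit and Sca-1 but no lineage markers. This bone marrow fraction holds blood-forming stem cells and multipotent progenitors. The RNA was read on Affymetrix arrays. The 2 control arrays, which the study titles wild type, had the genotype Rb +/+ p130 +/+ p107+/-, so they carried only a single intact copy of p107. The 3 deficient arrays had the genotype Rb -/- p130 -/- p107-/-. In both groups recombination was induced at 6 weeks of age through Mx1-Cre, a recombinase driven by an interferon-responsive promoter that is not restricted to stem cells, and cells were sorted 2 months later. The labels do not say whether an array holds 1 animal or a pool. The p-values therefore rest on the spread between arrays alone. How much of that spread is technical and how much lies between animals is not known.

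RB, p107 and p130 are the pocket proteins. They bind E2F transcription factors, and p107 and p130 also sit in the DREAM complex, which holds genes of cell division silent in resting cells through sites in their promoters known as CHR elements. The products of the 42 genes work at the end of that programme: the centromere marks where each chromosome is held, the kinetochore built on it grips spindle microtubules, and the checkpoint delays separation until every chromosome is attached. Mature stem cells in bone marrow are mostly at rest and have little use for these proteins until they divide. The sorted fraction also holds multipotent progenitors, and the arrays do not tell how many cells were at rest in either group.

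Some features of the arrays bear on what follows. Rbl1, which encodes p107, read 8.33 and 7.16 on the control arrays and 5.15, 4.25 and 4.73 on the deficient arrays (log2 intensity, brightest probe set), while the brighter probe sets of Rb1 and Rbl2 overlapped between the groups. Where those probes lie relative to the deleted parts was not analysed here. Xist, transcribed from an inactive X chromosome, read 10.67 on control 2 and 12.45 on deficient 2, against 5.09 to 6.12 on the other 3 arrays. Eif2s3y, a Y-linked gene, read 3.50 on deficient 2 and 9.81 to 10.37 elsewhere, so deficient 2 stands apart from the other deficient arrays in both genes, and control 2 reads high for both. Control 2 also read 7.26 for the T cell gene Cd3g, where the other arrays read 3.57 to 3.79. Kit, a marker of the sort, read 10.95 ± 0.18 in controls and 11.02 ± 0.21 in deficient cells (SD, n = 2 and n = 3), and Ly6a, the gene of Sca-1, was not analysed here. The 3' minus 5' log2 signal of beta-actin, a measure of RNA integrity, was 3.14 ± 0.03 (SD, n = 2) in controls. In deficient cells it was 3.42 ± 0.10 (SD, n = 3; exact permutation test, two-sided p = 0.1, the smallest that 2 against 3 arrays allow). The same measure for Gapdh overlapped, at 4.64 ± 0.10 and 4.66 ± 0.21 (p = 0.9, same exact test). The 18S rRNA signal was 10.40 ± 0.07 in controls and 9.76 ± 0.10 in deficient cells (p = 0.1, same exact test). The part of these measures in the results was not tested.

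Of the 42 genes, 6 rose in the deficient cells and none fell. Values below are log2 intensities, differences are deficient minus control on the log2 scale, and each gene is represented by its brightest probe set. Cenpe, Cenpf, Sgo2a, Bub1, Ttk and Incenp rose by between 0.86 and 1.47, that is 1.81-fold to 2.77-fold. These 6 of the 42 genes (14.3%) passed the threshold (limma, Benjamini-Hochberg adjusted p under 0.05 over 18193 genes), where 0.83% of all genes were called higher. None of the 42 was called lower (limma), where 1.41% of all genes were. The other 36 did not pass. At an unadjusted p below 0.05, 21 members were higher (8.79% of all genes) and 0 were lower (9.86% of all genes).

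The count of 6 rested on having all 5 arrays. It was 0 without control 1, 3 without control 2, 1 without deficient 1, 3 without deficient 2 and 1 without deficient 3. Calls over all genes fell as well. The share called higher was 0.83% with all 5 arrays, and 0.104%, 0.132% and 0.077% without deficient 1, 2 and 3. The size of the member differences moved less. The median difference of the 42 genes was 0.49, beside -0.01 over all genes. It ran from 0.35 without deficient 2 to 0.68 without control 2. Means were higher in deficient cells for 36 of the 42 genes, and for 48.1% of all genes. Every deficient array lay above both control arrays for 23 of the 42 genes, where this held for 16.5% of all genes. The reverse order held for 1 gene, Mis12, and for 18.6% of all genes. Among the 909 genes with the largest differences, the top 5%, 20 were members.

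**Figure D1:**
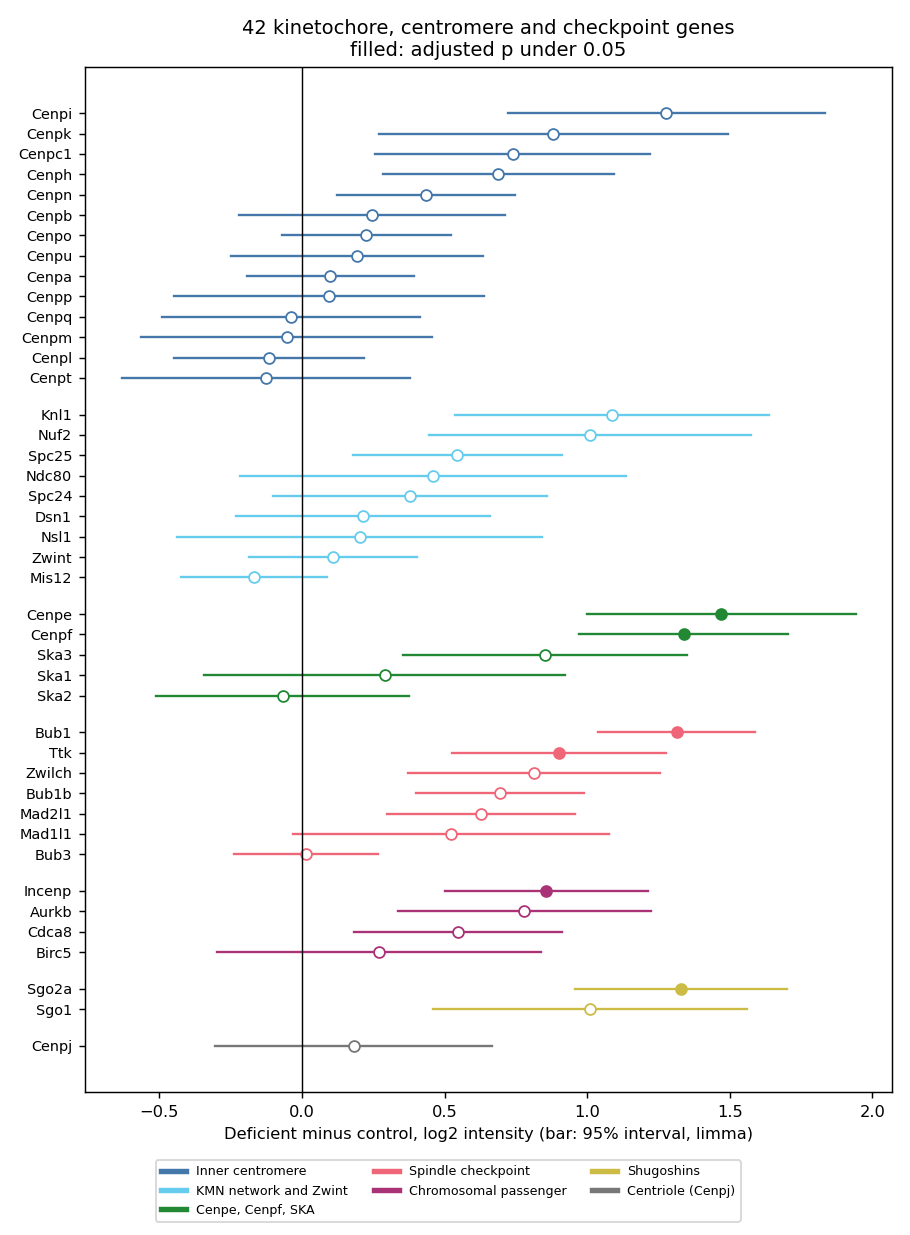
Difference between deficient (n = 3) and control (n = 2) arrays in log2 intensity for each of the 42 genes, grouped by role, with 95% intervals from limma and filled points for adjusted p under 0.05. The 6 filled points lie between 0.86 and 1.47, while the inner centromere genes spread from -0.13 to 1.28 with none filled.

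Markers of mature blood cells moved with the groups, in the opposite direction. Of 11 neutrophil granule genes measured, 9 fell and 0 rose (limma). Over all genes 1.41% were called lower and 0.83% higher, and these shares stand beside the counts of each list below. The median difference of the 11 was -4.93. Their summed intensity lay at 16.06 and 16.32 (log2) on the control arrays and between 14.81 and 14.90 on the deficient arrays. That sum includes Mpo, which alone read 14.36 to 14.40 on the deficient arrays, so it understates the fall of the 9 genes. The summed intensity of 10 B and plasma cell genes was 13.97 and 14.83 in controls and 10.25 to 10.38 in deficient cells, with 3 genes lower, and that of 8 T and NK cell genes was 8.41 and 9.02 against 7.74 to 7.84, with 2 lower. The early granule genes Mpo and Elane did not fall: their differences were 0.39 and 0.81 and neither passed. For 8 macrophage and dendritic cell genes the sums were 12.79 and 12.17 in controls and 10.88 to 11.19 in deficient cells, with 1 lower, and for 6 erythroid genes the groups overlapped. In bulk RNA, fewer cells of a type and less RNA per cell cannot be told apart, and the part of these markers in the rise of the chromosome attachment genes was not tested.

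Bub1, the checkpoint kinase that marks centromeric chromatin and recruits other checkpoint proteins, had the smallest adjusted p of the 42 genes. It read 8.35 and 8.37 on the control arrays and 9.75, 9.71 and 9.56 on the deficient arrays. The controls agreed closely and every deficient array was more than a log2 unit above them. Its difference was 1.31 (SE 0.11, limma adjusted p = 0.00841, 2.49-fold), and it passed in 4 of the 5 fits with an array left out, missing only without control 1 (limma adjusted p = 0.0514). Averaged with its unsteady second probe set it differed by 0.90 and did not pass (limma adjusted p = 0.234).

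Cenpe, a kinesin motor that carries chromosomes to the middle of the spindle, read 7.56 and 7.65 in controls and 8.93, 9.44 and 8.86 in deficient cells. Deficient 2 was the highest and the groups stood well apart. The difference was 1.47 (SE 0.19, limma adjusted p = 0.0271), the largest among the 42 genes and the 22nd largest of all genes. Over all 45037 probe sets the same measurement missed (limma adjusted p = 0.0513). A dimmer probe set of Cenpe gave 1.84 (SE 0.20, limma adjusted p = 0.0369 over all probe sets). Its control arrays read 4.65 and 4.05, below the array medians of 4.71 to 4.74.

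Cenpf, a large coiled-coil protein of the outer kinetochore, read 7.91 and 7.99 in controls, against 9.19, 9.53 and 9.15. Its difference was 1.34 (SE 0.15, limma adjusted p = 0.0193). Sgo2a, which encodes a shugoshin that shields centromeric cohesin from cleavage, read 7.42 and 7.82 in controls against 8.99, 9.02 and 8.84, a difference of 1.33 (SE 0.15, limma adjusted p = 0.0200). In both genes the 3 deficient arrays lay above the controls with no overlap. The other 2 probe sets of Cenpf were dim and differed by 0.19 and 0.02, and the mean of all 3 gave 0.52 (limma adjusted p = 0.0550).

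Ttk, the MPS1 kinase that starts checkpoint signalling at unattached kinetochores, read 7.58 and 8.02 in controls and 8.65, 8.70 and 8.74 in deficient cells. The deficient arrays were tighter than the controls, and the difference was 0.90 (SE 0.15, limma adjusted p = 0.0473), or 0.68 without control 1 and 1.12 without control 2. Incenp, the scaffold of the chromosomal passenger complex, read 11.44 and 11.28 in controls and 12.11, 12.44 and 12.11 in the deficient arrays, which did not overlap. The difference was 0.86 (SE 0.15, limma adjusted p = 0.0473). Its brightest probe set ends in _x_at, a class whose probes can also bind related transcripts, and without such probe sets Incenp differed by 0.81 and missed the threshold (limma adjusted p = 0.0590). Both genes also missed it after quantile normalization (limma adjusted p = 0.0640 for Ttk and 0.0535 for Incenp), after cyclic loess (0.0538 and 0.0581) and with the mean of their probe sets (0.130 and 0.0740), where the differences were 0.38 for Ttk and 0.61 for Incenp. With 1 array left out, Incenp passed in none of 5 fits, Ttk and Sgo2a only without control 2, and Cenpe and Cenpf only without deficient 2.

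**Figure D2:**
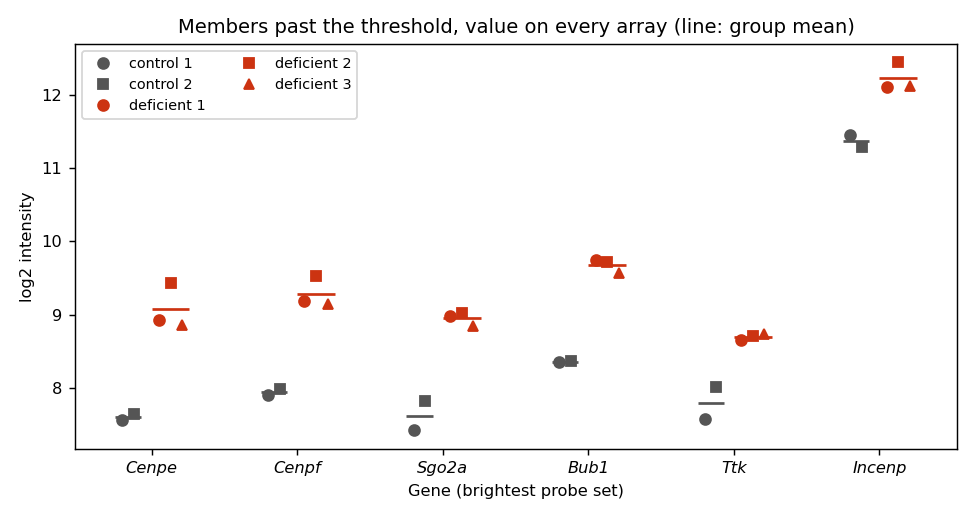
Log2 intensity of the 6 genes past the threshold on each of the 5 arrays, with a line at each group mean. Every deficient array (red) lies above both control arrays (grey) in all 6 genes, and the gap is clearest for Bub1, at 8.35 and 8.37 against 9.56 to 9.75.

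The start regions of these genes were read from RefSeq's promoter table (GRCm38.p6), which held 36 of the 42 genes and no entry for Incenp, Aurkb, Zwilch, Spc24, Nsl1 or Ska1. For the 5 called genes with an entry, the 220 bases upstream and the first 30 bases of the transcript are printed 5′ to 3′ on the gene's strand, to show where such letters sit. They stand together with Cenpa, the centromeric histone, whose level differed by only 0.10. Capitals mark matches, on either strand, to the CHR letters TTTGAA or TTCGAA, to the CCAAT box (CCAAT), which binds NF-Y, or to E2F letters (TTTCCCGC, TTTCGCGC, TTTGCCGC or TTTGGCGC). No 2 matches overlap in these 6 regions.
Bub1 (chr2:127831830-127832079, minus strand): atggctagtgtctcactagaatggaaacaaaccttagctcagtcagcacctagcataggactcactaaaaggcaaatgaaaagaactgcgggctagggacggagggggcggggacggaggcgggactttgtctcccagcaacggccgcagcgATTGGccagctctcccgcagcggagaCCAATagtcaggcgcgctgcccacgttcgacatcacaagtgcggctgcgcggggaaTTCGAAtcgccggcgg
Ttk (chr9:83834469-83834718, plus strand): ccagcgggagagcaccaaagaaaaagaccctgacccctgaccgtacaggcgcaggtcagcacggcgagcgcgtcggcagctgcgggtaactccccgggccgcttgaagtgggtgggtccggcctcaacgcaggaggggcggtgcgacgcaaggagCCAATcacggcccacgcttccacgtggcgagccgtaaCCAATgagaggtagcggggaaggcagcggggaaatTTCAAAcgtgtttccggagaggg
Cenpe (chr3:135212343-135212592, plus strand): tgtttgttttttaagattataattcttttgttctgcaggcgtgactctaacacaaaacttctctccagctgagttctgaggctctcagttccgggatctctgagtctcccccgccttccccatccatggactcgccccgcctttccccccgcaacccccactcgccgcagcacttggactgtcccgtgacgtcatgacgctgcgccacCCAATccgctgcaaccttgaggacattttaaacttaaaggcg
Cenpf (chr1:189688057-189688306, minus strand): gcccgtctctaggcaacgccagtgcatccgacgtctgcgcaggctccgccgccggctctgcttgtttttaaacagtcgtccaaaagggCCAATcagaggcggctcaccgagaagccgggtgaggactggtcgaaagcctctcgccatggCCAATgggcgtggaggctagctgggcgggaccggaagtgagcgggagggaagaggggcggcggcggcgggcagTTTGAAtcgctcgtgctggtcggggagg
Sgo2a (chr1:57985120-57985369, plus strand): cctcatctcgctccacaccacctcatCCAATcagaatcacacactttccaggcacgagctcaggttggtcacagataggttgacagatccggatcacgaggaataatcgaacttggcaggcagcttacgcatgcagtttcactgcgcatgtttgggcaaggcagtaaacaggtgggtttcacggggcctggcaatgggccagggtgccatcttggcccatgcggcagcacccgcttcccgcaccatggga
Cenpa (chr5:30666666-30666915, plus strand): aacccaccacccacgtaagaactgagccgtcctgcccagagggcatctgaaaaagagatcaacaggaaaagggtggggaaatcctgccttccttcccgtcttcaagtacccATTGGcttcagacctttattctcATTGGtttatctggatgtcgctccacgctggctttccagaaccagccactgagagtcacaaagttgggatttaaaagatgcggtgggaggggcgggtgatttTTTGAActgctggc

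Bub1 and Cenpf each had a CHR match just inside the transcript, starting at its base 15 and base 3, and Ttk had one on the opposite strand starting at base 8. All 3 also had a pair of CCAAT matches upstream, those of Bub1 starting 68 and 42 bases before the start and those of Ttk 65 and 28 bases before it. The pair in Cenpf started 132 and 71 bases upstream. Cenpa had the same arrangement, with CCAAT letters 109 and 86 bases upstream and a CHR match at base 17, although its RNA level was close between the groups. Cenpe had a CCAAT match 12 bases upstream and Sgo2a one 194 bases upstream of the start shown, and neither had CHR or E2F letters in the 300 bases searched. A match describes letters only and is not evidence of binding.

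Over the whole 300 bases of each entry (250 upstream and 50 from the start), 15 of 36 member genes (41.7%) held CHR letters at any of their listed starts, as did 21.7% of all 27025 genes in the table and 19.2% of its 32851 promoters. Most of the surplus lay in the first 50 bases of the transcript. There 10 of 36 members (27.8%) held CHR letters, against 2.87% of all genes (2.46% of promoters). In the 250 bases upstream the shares were 16.7% of members and 19.6% of all genes (17.1% of promoters). Those 10 genes were Bub1, Bub1b, Cdca8, Cenpa, Cenpf, Knl1, Ndc80, Sgo1, Spc25 and Ttk, and their median difference was 0.80, beside 0.24 for the 26 members with an entry and no such match there. For CHR letters in the 250 bases upstream the medians ran the other way, at 0.23 for the 6 members with a match and 0.53 for the 30 without, and over the whole 300 bases they were 0.55 and 0.25. CCAAT letters were present in 23 members (63.9%) and in 41.1% of all genes (37.4% of promoters). E2F letters were present in 4 members, Cenpb, Cenpl, Cenpm and Dsn1 (11.1%, against 2.6% of all genes and 2.26% of promoters), and the median difference of those 4 was 0.08. The split of the window at the start was made after seeing where the matches lay, and none of these shares or medians was tested.

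The inner centromere genes, which build the platform under the kinetochore, held 4 of the 6 lower means found among the 42 genes. None of the 14 passed (limma), where 0.83% of all genes were called higher and 1.41% lower. By unadjusted p below 0.05, 5 were higher (8.79% of all genes) and 0 lower (9.86% of all genes). The median was 0.21. Cenpi had the largest difference, with 6.65 and 7.26 in controls and 8.11, 8.52 and 8.07 in deficient cells. Its groups did not overlap, and its difference of 1.28 (SE 0.23, 95% interval 0.72 to 1.83) just missed the threshold (limma adjusted p = 0.0543).

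Of its partners in the same subcomplex, Cenph and Cenpk differed by 0.69 (95% interval 0.28 to 1.09) and 0.88 (0.27 to 1.49), with every deficient array above both controls, whereas Cenpm differed by -0.05 (-0.56 to 0.46) with overlapping arrays. Cenpc1, the protein that links centromeric chromatin to the outer kinetochore, differed by 0.74 (0.26 to 1.22), and Cenpn, which recognises the centromeric nucleosome, by 0.44 (0.12 to 0.75). Cenph, Cenpk, Cenpc1 and Cenpn had limma adjusted p of at least 0.0997. Cenpc1 read 7.86 on control 1 and 8.42 on control 2, so the controls were further apart than the deficient arrays (8.78 to 9.06).

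The other 9 inner centromere genes had differences between -0.13 and 0.25. Cenpa, the histone variant that defines the centromere, read 10.59 and 10.71 in controls and 10.64, 10.86 and 10.75 in deficient cells, a difference of 0.10 (95% interval -0.19 to 0.39). Cenpb, which binds a repeat of centromeric DNA, differed by 0.25 (interval -0.22 to 0.71). Cenpo, Cenpp, Cenpu and Cenpq, of the subcomplex that contains CENP-O, differed by 0.23, 0.09, 0.19 and -0.04. On that probe set of Cenpo every deficient array lay above both controls, while its others with a mean of at least 5 gave 0.28 and -0.27. A second probe set of Cenpu gave 0.63 with every deficient array above both controls. One of Cenpp gave 0.32 with overlapping arrays. Cenpl differed by -0.11. Cenpt, a histone-fold protein that recruits the NDC80 complex, had the lowest difference, with 9.59 and 9.18 in controls against 8.93, 9.45 and 9.38 (difference -0.13, interval -0.63 to 0.38), and its groups overlapped. The intervals of these 9 genes all include 0 but do not show that the levels were equal.

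In the KMN network, the part of the kinetochore that holds the microtubule, and its partner Zwint, none of 9 genes passed (limma). By unadjusted p below 0.05, 3 were higher (8.79% of all genes) and 0 lower (9.86% of all genes). The median was 0.38. Knl1, the scaffold on which checkpoint proteins assemble, read 7.28 and 6.86 in controls and 7.96, 8.54 and 7.98 in deficient cells, with no overlap (difference 1.09, SE 0.23, limma adjusted p = 0.0731). Within the NDC80 complex, the 4-part rod that binds microtubules, Nuf2 differed by 1.01 (95% interval 0.45 to 1.57), Spc25 by 0.55 (0.18 to 0.91), Ndc80 by 0.46 (-0.22 to 1.14) and Spc24 by 0.38 (-0.10 to 0.86). Ndc80 shows how far the controls could differ: it read 7.73 on control 1 and 8.60 on control 2, with deficient arrays at 8.40, 8.88 and 8.60, so its difference was 0.90 without control 2 and 0.02 without control 1.

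The MIS12 complex joins the inner centromere to the microtubule-binding proteins, and none of its 3 measured genes passed. Mis12 read 7.90 and 7.96 in controls and 7.72, 7.74 and 7.82 in deficient cells, the sole member with every deficient array below both controls, at a difference of -0.17 (SE 0.11, limma adjusted p = 0.487). Dsn1 differed by 0.21 and Nsl1 by 0.20 with overlapping arrays, and the other probe set of Nsl1 gave -0.26. Zwint, which helps recruit the RZZ complex, differed by 0.11 on its brightest probe set and by between -0.02 and 0.01 on the next 2.

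The SKA complex steadies the grip of kinetochores on shrinking microtubules. Ska3 read 5.77 and 6.40 in controls and 7.08, 6.91 and 6.82 in deficient cells, without overlap, and differed by 0.85 (95% interval 0.36 to 1.35, limma adjusted p = 0.0976). Ska1 differed by 0.29 (-0.34 to 0.92), with control 1 at 6.46 and control 2 at 7.35. Ska2 read 8.46 and 8.60 against 8.14, 8.57 and 8.68 and differed by -0.07, while its other probe set gave 0.46. The members of this complex therefore gave different differences on the same arrays, and a test of those differences between genes was not made.

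Among the 7 spindle checkpoint genes, 2 rose (Bub1 and Ttk) and 5 did not pass, where 0.83% of all genes were called higher. All 7 means were higher (48.1% of all genes), with a median of 0.69. For all but Bub3, every deficient array lay above both controls, an order that held for 16.5% of all genes. Bub1b, which encodes BUBR1, an inhibitor of the anaphase-promoting complex, read 10.62 and 10.52 in controls and 11.28, 11.37 and 11.14 in deficient cells. Its difference of 0.69 (SE 0.12) stopped just short of the threshold (limma adjusted p = 0.0501). A second bright probe set of Bub1b gave 0.68. Mad2l1, the MAD2 protein that captures the anaphase activator CDC20, read 10.84 and 10.99 against 11.50, 11.72 and 11.42 (difference 0.63, 95% interval 0.30 to 0.96).

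Zwilch, a subunit of the RZZ complex that brings MAD1 and MAD2 to kinetochores, read 8.22 and 8.52 in controls and 9.46, 9.08 and 8.996 in deficient cells (difference 0.81, limma adjusted p = 0.0847). Mad1l1, the kinetochore platform for MAD2, differed by 0.52 (95% interval -0.03 to 1.08). Bub3, the WD40 partner of BUB1 and BUBR1, differed from its partners in these data: it read 12.30 and 12.37 in controls and 12.37, 12.31 and 12.37 in deficient cells, a difference of 0.02 (interval -0.24 to 0.27). The interval of Bub3 lay below that of Bub1 (1.04 to 1.59) on these probe sets. Its 2 next brightest probe sets gave 0.16 and 0.53, so the probe sets of Bub3 did not give the same size.

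The chromosomal passenger complex corrects faulty attachments and works again at cytokinesis. Of its 4 genes only Incenp passed, where 0.83% of all genes were called higher. All 4 means were higher (48.1% of all genes), with a median of 0.66. Aurkb, the kinase of the complex, read 9.54 and 9.98 in controls and 10.46, 10.76 and 10.40 in deficient cells (difference 0.78, 95% interval 0.34 to 1.22). Its other probe set gave 0.75. The names of the 2 end in _x_at and _s_at, classes whose probes can also bind related transcripts. Without such probe sets Aurkb was not measured. Cdca8, which encodes borealin, differed by 0.55 on its brightest probe set and by 0.57 and 0.59 on the other 2. Birc5, which encodes survivin, read 9.87 on control 1 and 10.68 on control 2, with the deficient arrays between them at 10.48, 10.60 and 10.54. Its difference of 0.27 (-0.30 to 0.84) became 0.67 without control 2 and -0.13 without control 1.

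Sgo1, which protects cohesin in mitosis, did not pass the threshold. It read 7.95 and 8.45 in controls and 9.07, 9.56 and 9.01 in deficient cells. The difference was 1.01 (SE 0.23, limma adjusted p = 0.0859), and its second probe set gave 1.03. Cenpj, although named as a centromere protein, is a factor of centriole growth. It differed by 0.18 (95% interval -0.30 to 0.67), with control arrays at 6.99 and 7.29 and deficient arrays at 7.08, 7.65 and 7.24, which overlapped.

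**Figure D3:**
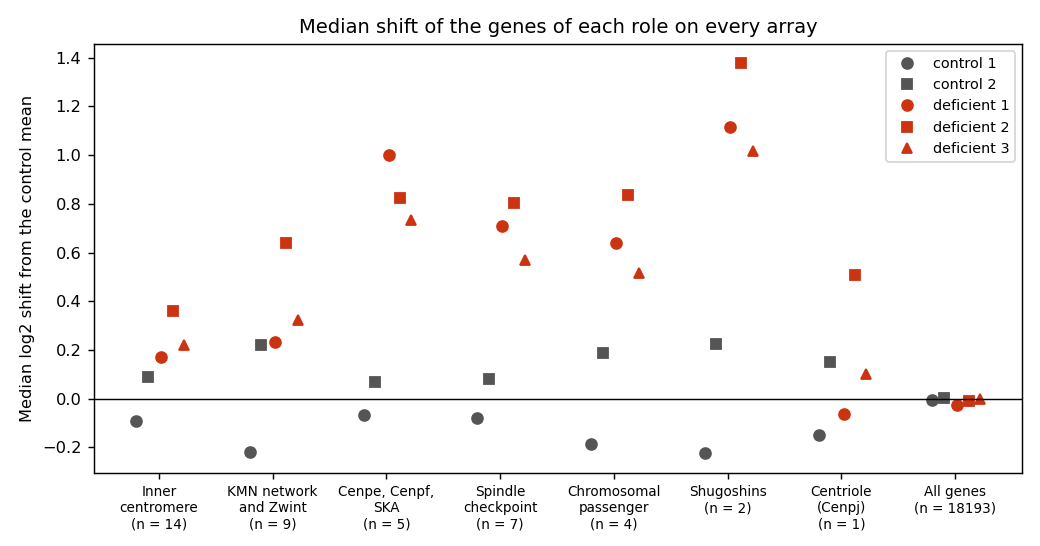
Median shift of the genes of each role on every array, as log2 intensity minus each gene's control mean, with the number of genes below each role and all 18193 genes at the right. Deficient arrays lie at 0.57 to 0.80 for checkpoint genes and 1.02 to 1.38 for shugoshins, but at 0.17 to 0.36 for inner centromere genes, and control 2 lies above control 1 in every role drawn.

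The shift was present on all 3 deficient arrays but was not of the same size. Relative to the control mean of each gene, the median shift of the 42 genes was 0.31 on deficient 1, 0.66 on deficient 2 and 0.43 on deficient 3, where all genes together had shifts between -0.02 and 0.00. Deficient 2, the array that stands apart for Xist, was the highest of the deficient arrays for 27 of the 42 genes (64.3%, against 36.8% of all genes). Leaving it out gave a median difference of 0.35. The control arrays also differed: control 2 was above control 1 for 37 of 42 genes (88.1%, against 51.4% of all genes), by a median of 0.29. The same order held for 21 of 22 replication licensing genes (95.5%), by a median of 0.36, while deficient 2 was the highest deficient array for 22.7% of those. For KMN genes, control 1 lay at -0.22, control 2 at 0.22 and deficient 1 at 0.23 relative to the control mean, so control 2 and deficient 1 were close.

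Over all 88 probe sets of the 42 genes, 4 rose and 0 fell (limma, adjusted over 45037 probe sets), where 0.164% of all probe sets were called higher and 0.326% lower. By unadjusted p below 0.05, 32 were higher (7.28% of all) and 1 lower (6.82% of all). Means were higher for 71 of the 88, and for 50.5% of all probe sets. The 4 probe sets past the adjusted threshold belonged to Cenpe, Cenpf, Bub1 and Sgo2a. The count was 1 without control 1 and 0 without any other array. Of the 88, 63 had a mean of at least 5 on the log2 scale and a median difference of 0.49. The other 25 were dimmer, near or below the median intensity of the arrays, and had a median difference of 0.09 with none called. The mean used for this cut includes the deficient arrays, so a probe set can pass it through them. The second probe set of Cenpe did, at a control mean of 4.35 and a deficient mean of 6.19. The 2 medians are therefore not independent of the cut. For Cenpo, Nsl1, Zwint and Ska2, probe sets with a mean of at least 5 gave differences of opposite sign. Bub1 had a second, unsteady probe set, at 4.58 and 5.55 in controls and 6.63, 4.34 and 5.70 in deficient cells, where the groups overlapped.

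**Figure D4:**
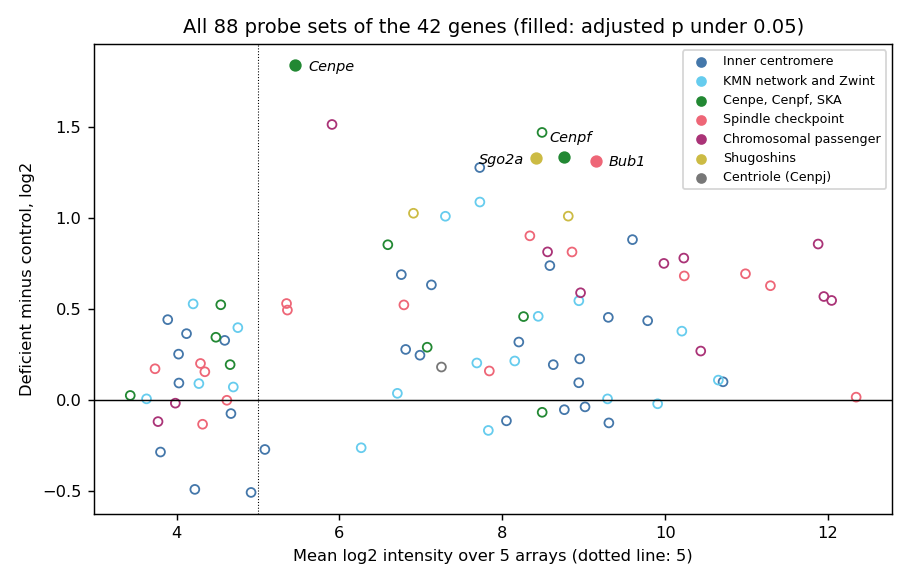
Difference in log2 intensity against the mean log2 intensity over 5 arrays for all 88 probe sets, coloured by role, with filled points for adjusted p under 0.05 over 45037 probe sets. The 25 probe sets left of the dotted line at 5 scatter around 0.09, and the 4 filled points, from Cenpe, Cenpf, Sgo2a and Bub1, lie to its right. The mean includes the deficient arrays, so high deficient values also move a point to the right.

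Of 24 further genes of the centromere, kinetochore and checkpoint that were measured, 3 rose, 0 fell and 21 did not pass, with a median of 0.21. Over all genes 0.83% were called higher and 1.41% lower (limma). By unadjusted p below 0.05, 9 were higher (8.79% of all genes) and 3 lower (9.86% of all genes). The lower count was thus near the share over all genes. The 3 lower were Cenpv (-0.89), Mad2l1bp (-0.76, limma adjusted p = 0.0634) and Ndel1, a dynein regulator (-0.59). Mad2l1bp encodes a MAD2-binding protein that silences the checkpoint. For all 3 of these, every deficient array lay below both controls. That order held for 4 of the 24 genes and for 18.6% of all genes. The opposite order held for 12 of the 24, and for 16.5% of all genes. Plk1, the mitotic kinase that acts at kinetochores, read 8.16 and 8.17 in controls and 8.76 on each deficient array (difference 0.59, SE 0.10, limma adjusted p = 0.0473). Haspin, the histone kinase that positions the passenger complex, differed by 0.76 (SE 0.13, limma adjusted p = 0.0446), from 8.06 and 7.83 to 8.79, 8.62 and 8.70. Kntc1, which encodes the ROD subunit of the complex that holds Zwilch, differed by 0.67 (SE 0.12, limma adjusted p = 0.0474), from 8.72 and 8.86 to 9.38, 9.54 and 9.47. The groups of these 3 genes did not overlap. Zw10, which encodes another subunit of the RZZ complex, differed by 0.21 and did not pass.

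In the same fit, 2 of 12 mitotic kinesin genes rose (Kif11 and Kif20b), with a median of 0.75. Of 22 genes of DNA replication licensing, 0 passed in either direction (limma), with a median of 0.25. Over all genes 0.83% were called higher and 1.41% lower. By unadjusted p below 0.05, 8 kinesin and 3 licensing genes were higher (8.79% of all genes). In either list 0 were lower (9.86% of all genes). Kif2c and Kif18a belong both to the kinesins and to the 24 further genes above. The median of the 42 kinetochore and checkpoint genes, 0.49, lay between those of the kinesins and the licensing genes. The difference between the lists was not tested.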

How the data were processed

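RNA of sorted KLS cells was hybridised as biotin-labelled cRNA to Affymetrix arrays, per the labels' protocols. The deposited intensity values were made by the authors with RMA, per the submitters' processing notes; the software behind RMA, and whether the excluded array (6 were hybridised) took part, is not given in the sources used here. RMA sets arrays to a common distribution, so a shift of all transcripts would not be seen. The values are linear, and log2 was taken here. No columns belonged to other samples.

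limma 3.58.1 (R 4.3.3; lmFit, eBayes, two-sided, no covariate) was fitted to 5 arrays over 45037 probe sets without 64 controls, and over 18193 genes with the brightest single-symbol probe set of each. The threshold was an adjusted p under 0.05 (Benjamini-Hochberg). No filter on low values was used. The number of arrays limits the precision. The fit was tested on simulated data. Members and lists were chosen with earlier results of these data known. All members are named; array values are given for those past the threshold and for the extremes of each role, and others with array values were chosen after their values were seen. Alternatives were other normalizations, probe set filters, variance priors, array weights, a replicate block, a looser threshold, probe set means and each array left out. Motifs were searched with Python 3.11.15.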

Additional observations from a re-analysis of the deposited data

How the results depend on the processing

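The 6 calls among genes were 4 after quantile normalization or cyclic loess, 6 after median centring or with array weights, and 9 with an intensity trend in eBayes. At an adjusted p under 0.1 they were 16 genes and 12 probe sets, and the trend gave 7 probe sets in place of 4. Replicate numbers are shared between the groups. Over all probe sets, same-numbered arrays did not deviate together (correlations -0.05 and -0.02). For the 42 genes they leaned the same way. The median deviation of these genes from the group mean was -0.14 on control 1 and -0.07 on deficient 1. It was 0.14 on control 2 and 0.11 on deficient 2, and -0.10 on deficient 3, which has no same-numbered control. With the number as a replicate block 0 members and 0 of their probe sets passed, with a median difference of 0.52. Only 1 of all 18193 genes was then called higher, so the 0 is not particular to the members. With each array left out in turn, between 0 and 3 genes and between 0 and 1 probe sets passed, and the median ran from 0.35 to 0.68. No setting called a member lower. With probe sets averaged per gene, 4 genes passed, Cenpe, Sgo2a, Cenpi and Knl1.

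Genes near 0 changed sign, none of them called: Bub3 after cyclic loess (-0.0070), Cenpq with array weights (0.0057), Cenpm and Cenpq with the replicate block (0.11 and 0.011), and with probe set means Cenpb (-0.020), Cenpo (-0.040), Nsl1 (-0.030) and Ska2 (0.20). With 1 array left out, differences ran from -0.33 to 0.078 for Cenpt, -0.065 to 0.49 for Dsn1, -0.21 to 0.61 for Nsl1, -0.15 to 0.73 for Ska1, -0.019 to 0.050 for Bub3, -0.13 to 0.67 for Birc5, -0.23 to 0.11 for Cenpm, -0.19 to 0.10 for Cenpq, -0.18 to 0.093 for Ska2 and -0.12 to 0.24 for Cenpp. The causes were not tested.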
